A study of Homo sapiens with 12 samples.

Results

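The miRNA profiles of parental Saos-2 cells were compared between day 7 and day 14 of culture in osteogenic medium. The arrays were 4 of the 12 one-colour Agilent human miRNA arrays of the series, 2 at day 7 and 2 at day 14, chosen by their labels in the deposited value table. Of the 851 human miRNA names in that table, 189 were detected on both arrays of at least 1 of these days, and these are the miRNAs of this part. The test covered 219, so that the comparison with Sa/CD99 also names miRNAs outside the 189, such as miR-23a* and miR-550. Limits of the arrays and of their labels are given before any result, because they bear on every value. Saos-2 is an established human osteosarcoma cell line. At days 7 and 14 the parental cells had been kept in differentiation medium for that time and carried no transfected gene. The series also holds day 0 and the Sa/CD99 cells, stable CD99 transfectants of Saos-2 selected in neomycin, whose arrays come from clones 22 and 36, 1 array per clone and day. Each of these is 1 clone, so that a Sa/CD99 group carries the differences between clones as well as those between arrays. A tumour line of this kind is a model of osteoblast-like cells, not of normal osteoblasts. Nothing states that the replicates of Saos-2 were separate cultures, and the spread between them may be technical. The p-values use a spread estimated over all 12 arrays in 6 groups, which includes day 0 and the differences between the Sa/CD99 clones.

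miRNAs are short RNAs that guide repressor complexes to mRNAs, mainly by pairing of the seed near their 5′ end, and miRNAs with the same seed share many predicted targets. Osteoblasts arise from mesenchymal precursors under RUNX2, BMP, Wnt and TGFbeta signalling, leave the cell cycle and lay down a collagen matrix that mineralises. Several miRNA families act on these steps: miR-29 on collagens and other matrix mRNAs, miR-30c and miR-23a on RUNX2, and miR-34a on cell cycle mRNAs downstream of p53.

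Mature sequences are shown for the miRNAs on which the results turn: those that led the higher and lower values at day 14, those whose change differed between Saos-2 and Sa/CD99, their neighbours in the CLCN5 locus of chromosome X, the mesenchymal pair miR-199a and the members of the miR-320 family that share a seed. They were taken from RefSeq, build GRCh38.p14, are written 5′ to 3′, and have the seed, bases 2 to 8, in capitals. Of the 189 miRNAs, 63 (33.3%) had an entry under an identical name.
miR-198: gGUCCAGAggggagauagguuc
miR-1224-5p: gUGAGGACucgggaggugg
miR-572: gUCCGCUCggcgguggccca
miR-139-3p: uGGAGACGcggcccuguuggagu
miR-1469: cUCGGCGCggggcgcgggcucc
miR-1305: uUUUCAACucuaaugggagaga
miR-501-5p: aAUCCUUUgucccugggugaga
miR-362-5p: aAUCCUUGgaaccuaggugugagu
miR-188-5p: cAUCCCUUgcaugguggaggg
miR-199a-5p: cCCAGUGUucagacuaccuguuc
miR-199a-3p: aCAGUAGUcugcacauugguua
miR-320b: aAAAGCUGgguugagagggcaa
miR-320c: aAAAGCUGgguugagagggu
miR-320d: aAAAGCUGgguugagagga

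In these 63 miRNAs the only seed held by more than 1 was AAAGCUG, shared by miR-320b, miR-320c and miR-320d. miR-198 lies at chr3:120395703-120395724 on the minus strand within the span of FSTL1, and miR-1224-5p at chr3:184241405-184241423 on the plus strand within that of VWA5B2. miR-572 lies at chr4:11368887-11368906 on the plus strand, outside the span of any protein-coding gene. miR-139-3p lies at chr11:72615066-72615088 on the minus strand within PDE2A, miR-1469 at chr15:96333261-96333282 on the plus strand within NR2F2, and miR-1305 at chr4:182169343-182169364 on the plus strand within TENM3. miR-188-5p (chrX:50003517-50003537), miR-362-5p (chrX:50008968-50008991) and miR-501-5p (chrX:50009735-50009756) all lie on the plus strand within CLCN5. Both arms of miR-199a are encoded at 2 loci, within DNM3 on chromosome 1 and within DNM2 on chromosome 19. These are gene spans, and exons were not told from introns. A comparison of GC content or length between miRNAs higher and lower at day 14 was void, since fewer miRNAs had a sequence than such a check needs. A sequence was found for 15 of the 31 with both day 14 arrays above both day 7 arrays. It was found for 6 of the 23 with both below.

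The scanner files and the value table assign the arrays to different samples. When columns and scanner arrays were matched by the miRNAs they detect, each of the 12 columns found exactly 1 array identical over the 847 shared names, and in all 12 cases that array was filed under another sample. By the labels of the table, the 4 day 0 arrays were those with the lowest summed human signal, 8594 to 11371 against 25232 or more in the 8 others, and miR-923 made up 2.12% to 6.50% of it, against 48.4% or more. By the filed labels these 4 arrays lie on days 0, 7 and 14. It is not settled which labels are correct. All values below follow the labels of the table. Signals of the scanner arrays were read through this pairing. By it, both day 7 arrays came from slide 1 and both day 14 arrays from slide 2, so that slide and day cannot be told apart.

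The array of day 7 replicate 1 stood apart. It had 158 detected human miRNAs, against 229 in day 7 replicate 2, 197 in day 14 replicate 1 and 209 in day 14 replicate 2. Its summed human signal was 25232, against 56553 in the other day 7 array and 39910.1 and 46314 in the day 14 arrays. miR-923, a former miRNA name since withdrawn as a ribosomal RNA fragment, made up 62.1% and 60.1% of this signal at day 7 and 62.8% and 48.4% at day 14. Without it the sums were 9569.9 and 22560.4 at day 7 and 14839.6 and 23899 at day 14. Day 7 replicate 1 was thus the dimmest array with and without miR-923, and the other day 7 array lay within the range of the day 14 arrays only without it. A miRNA that was not detected has a floor value in the table, a log2 value of -3.16 and -3.32 in the day 7 arrays and -3.30 and -3.31 in the day 14 arrays. The lowest detected log2 value was 0.37 in day 7 replicate 1 and -3.09, -1.90 and -2.22 in the others, so that a dim miRNA was placed at different distances from the floor on different arrays. The part of signal and slide in the results was not tested.

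**Figure D1:**
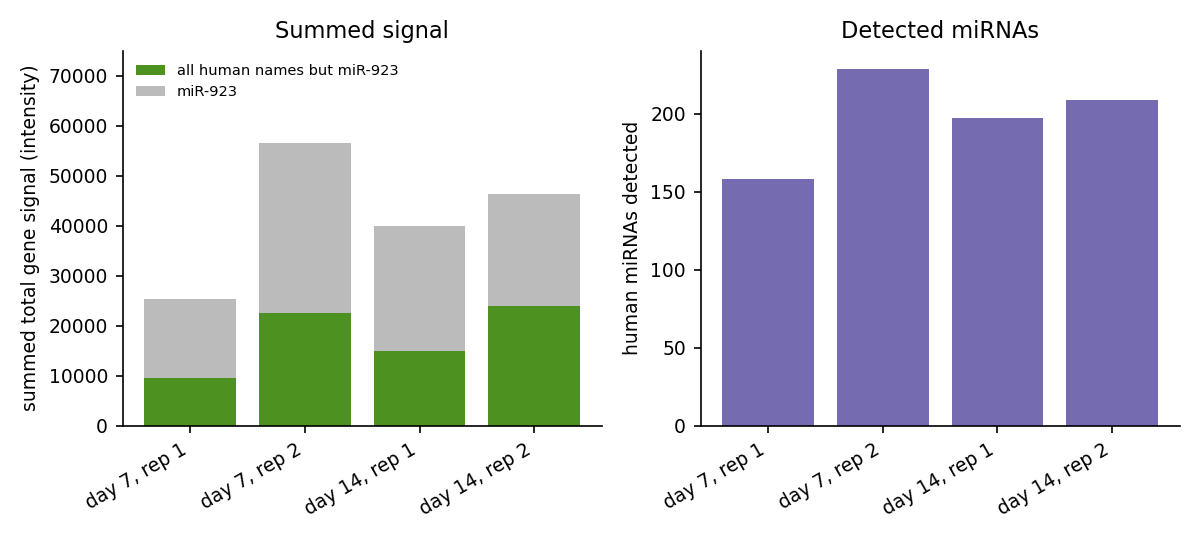
Summed human signal (intensity, with the share of miR-923) and number of detected human miRNAs in each of the 4 Saos-2 arrays. Day 7 replicate 1 is the lowest in both, with 158 detected miRNAs and a signal of 25232.

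Of the 851 names, 605 were detected on none of the 4 arrays and 150 on all 4. A further 24 were detected on 1 array of each day, and 31 on both arrays of day 14 but only 1 of day 7, against 3 on both of day 7 and only 1 of day 14. Across the 150 miRNAs detected on all 4 arrays, Pearson's r was 0.900 between the day 7 arrays and 0.913 between the day 14 arrays. Between days it was 0.912 and 0.887 for day 7 replicate 1 against day 14 replicates 1 and 2, and 0.906 and 0.949 for day 7 replicate 2. The median absolute log2 difference was 0.744 within day 7, 0.652 within day 14, and 0.314 between replicate 2 of day 7 and replicate 2 of day 14. The closest pair of arrays was therefore a pair from different days. These are descriptions across miRNAs, which are not independent replicates.

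The label of the cells was checked against miRNAs that mark cell types. Of 8 mesenchymal and osteoblast markers, 6 were detected on day 7 replicate 1 and 7 on each of the other arrays. Their summed level, on the log2 scale, was 8.67 and 7.83 at day 7 and 8.06 and 7.43 at day 14, a sum over different probes that can be read across arrays only, and miR-143 was undetected on all 4 arrays. None of the 6 blood markers, 6 epithelial markers, 7 markers of pluripotent cells, the endothelial miR-126 or the liver miR-122 was detected on any of the 4. The lists hold miR-371-3p and miR-150 but not their other arms, miR-371-5p and miR-150*, which were detected on all 4. miR-371-5p had 3.29 and 3.90 at day 7 and 3.59 and 3.20 at day 14. miR-150* had 4.52 and 4.63 at day 7 and 5.59 and 4.85 at day 14. Of 4 muscle markers, miR-133b alone was detected, on 1 array of day 14 at -1.16. Of 3 neuronal markers, miR-124 was undetected on all 4, miR-128 was detected on 1 array of each day at -1.61 and -0.996, and miR-9 on 1 array of day 14 at -0.98. Markers of the mesenchymal lineage were thus detected apart from miR-143, and no list of another cell type had a member among the 189. This depends on the arms listed, since miR-371-5p and miR-150* were among the 189.

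No miRNA was called changed between day 7 and day 14. limma called 0 of the 219 miRNAs tested higher (0%) and 0 lower (0%) when p-values were adjusted by Benjamini-Hochberg and called at 0.05, the smallest adjusted p being 0.221. At an unadjusted p of at most 0.05, 10 were higher (4.57% of those tested) and 9 lower (4.11%), all of them among the 189. At the thresholds of the study's methods, an unadjusted p of at most 0.01 with at least a 1.4-fold change, 1 was higher (0.457%) and 5 were lower (2.28%). Among all tested, both day 14 arrays lay above both day 7 arrays for 31 miRNAs (14.2%) and below them for 34 (15.5%). Of the 34, 11 were detected on 1 of the 4 arrays only and count as below because the floor of day 7 replicate 1 lies above the day 14 floors. Among the 189 these counts were 31 and 23, with 135 overlapping. The median log2 change of the 189 was -0.029, with quartiles of -0.42 and 0.67, beside a median of -0.064 for all tested. Of the 189, 31 were detected on both arrays of day 14 but only 1 of day 7, and 3 on day 14 alone, so that they entered through their day 14 values and stand at the floor on at least 1 day 7 array. Among the 150 detected on all 4 arrays, 14 lay above and 21 below, with quartiles of -0.46 and 0.24. The median standard error of a change among the 150 miRNAs detected on all 4 arrays was 0.51, and the number of arrays limits the precision. It draws on the spread within all 6 groups of the fit and not on the Saos-2 arrays alone.

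The count of calls rested on single arrays. Without day 7 replicate 1, limma called 5 miRNAs, all lower, without day 7 replicate 2 it called 19 (15 higher and 4 lower), without day 14 replicate 1 it called 0, and without day 14 replicate 2 it called 2, both higher. In each of these fits the lone array of a day was assumed to vary like the other groups. Of the 69 miRNAs named by the rules of this report, 32 turned direction without at least 1 of the 4 arrays, and 59 turned or moved by over 1.5 times. Scaling also moved all values. Centring on the median of the miRNAs detected on all 12 arrays adds the same log2 value of 0.23 to every change, so that a change of sign under it says nothing of a miRNA beside the others. The median of all tested moved by 0.10 with total gene signal scaled to the 75th percentile and by 0.12 without day 7 replicate 1, and by less with quantile normalization or rma. Lists are therefore also counted against the median of all tested in each setting. Of the 150 miRNAs detected on all 4 arrays, 57 were higher and 93 lower at day 14 as deposited, and 64 lay above and 86 below the median of all tested. Without day 7 replicate 1 these became 80 higher and 70 lower, and 74 above and 76 below. With scaled total gene signal, 85 of 148 were higher and 63 lower, and 74 above and 73 below. At an unadjusted p of at most 0.05 the split of 10 higher and 9 lower became 15 and 7 after centring, 7 and 9 after quantile normalization, 11 and 6 with rma on the paired scanner arrays, 11 and 12 with their total gene signal scaled to the 75th percentile, and 7 and 16 without day 7 replicate 1.

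**Figure D2:**
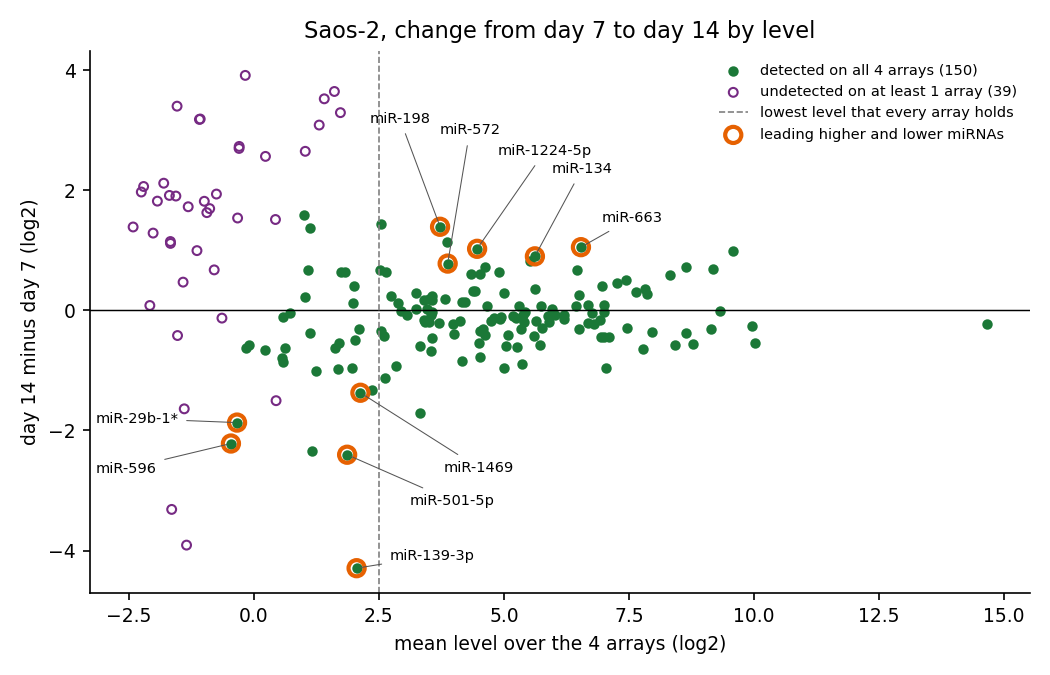
Log2 change from day 7 to day 14 against the mean log2 level over the 4 Saos-2 arrays, 1 point per miRNA, the leading ones circled. Large changes in either direction lie mostly at low levels, and none was called by limma.

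The spread of changes depended on level. A level was set at the log2 value of 2.50, the rank at which the array with the fewest detected miRNAs, 133, ends, since every array measured miRNAs above it. Of the 150 miRNAs, 108 lay above it on all 4 arrays, and 4 of these had a log2 change of at least 1 in size, against 17 of the 150. Among the 108, 43 were higher and 65 lower, 13 lay above and 12 below without overlap, and the smallest adjusted p by limma was 0.425. The array likeness was the same in kind, with an r of 0.978 between replicate 2 of day 7 and replicate 2 of day 14, against 0.920 within day 7 and 0.930 within day 14.

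The leading miRNAs of each direction were chosen among those detected on all 4 arrays with days that did not overlap. At an unadjusted p of at most 0.05, 3 of the 10 higher and 7 of the 9 lower miRNAs were detected on all 4 arrays, so that most of the higher ones lie outside this choice. One of these, miR-149*, named after its values were seen, was the only higher miRNA at the thresholds of the study's methods. It was undetected in day 7 replicate 1 and had log2 values of -2.14 in the other day 7 array and -0.35 and -1.12 at day 14, a change of 1.92 (SE 0.44, limma adjusted p 0.221) that was 0.37 with rma on the paired scanner arrays. Within the choice, the leading higher miRNAs lay above the level of 2.50. miR-198, encoded within the span of the follistatin-like gene FSTL1, had log2 values of 2.79 and 3.27 at day 7 and 4.94 and 3.90 at day 14. Both day 14 arrays were above both day 7 arrays, and the change was 1.39 (SE 0.49, limma adjusted p 0.425). miR-1224-5p, which is made by splicing of a short intron and not by Drosha, had 3.83 and 4.07 at day 7 and 5.49 and 4.46 at day 14, again without overlap. Its change was 1.03 (SE 0.40, limma adjusted p 0.481). For both, day 14 replicate 1 was the highest array, and without it the changes of miR-198 and miR-1224-5p were 0.87 and 0.51. That of miR-1224-5p was 1.54 without day 14 replicate 2. miR-663 had 5.41 and 6.62 at day 7 and 7.09 and 7.05 at day 14. The day 14 arrays were close together and the lowest value was that of day 7 replicate 1. Its change was 1.05 (SE 0.44, limma adjusted p 0.504), 0.45 without day 7 replicate 1, and 1.66 without day 7 replicate 2, where it was called (limma adjusted p 0.0272, range over all alternatives 0.0272 to 0.997).

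miR-134, a miRNA of the imprinted cluster of chromosome 14 best known from neurons, had log2 values of 4.70 and 5.64 at day 7 and 6.35 and 5.79 at day 14. miR-572 had 3.11 and 3.86 at day 7 and 4.60 and 3.93 at day 14. In both the days did not overlap, but day 7 replicate 2 and day 14 replicate 2 lay close to each other. The changes were 0.90 (SE 0.40) and 0.78 (SE 0.37), each at a limma adjusted p of 0.543. That of miR-134 was 0.44 without day 7 replicate 1 and 1.37 without day 7 replicate 2, and that of miR-572 was 0.40 without day 7 replicate 1 and 0.45 without day 14 replicate 1. With rma on the paired scanner arrays the changes of miR-198, miR-1224-5p, miR-663, miR-134 and miR-572 were 1.34, 1.01, 1.08, 1.02 and 0.78. With the scanner arrays under the samples they are filed under, those of miR-198, miR-1224-5p, miR-134 and miR-572 turned to -0.33, -0.27, -0.19 and -0.45, and that of miR-663 was 0.25.

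Among the lower values at day 14, chosen in the same way, miR-139-3p, from a precursor within the phosphodiesterase gene PDE2A, had log2 values of 3.59 and 4.81 at day 7 and -0.63 and 0.45 at day 14. The days were far apart, and the arrays within each day also differed by more than 1. The change was -4.29 (SE 1.20, limma adjusted p 0.269). With rma on the paired scanner arrays it was -2.03 and was the only call of that fit (limma adjusted p 0.0134), and it was -2.41 there without day 7 replicate 1 (limma adjusted p 0.00803). It was also called with undetected values raised to the lowest detected value of their array (limma adjusted p 0.0289). The change stayed at -4.29 there, since miR-139-3p was detected on all 4 Saos-2 arrays. Set values in other groups enter that call through the shared spread, so it is not read as further support. Over all alternatives the change ran from -5.18 to -0.68 and the adjusted p from 0.00803 to 0.997, the last with the scanner arrays as filed.

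miR-29b-1*, the passenger strand of a miR-29b precursor, had log2 values of 0.78 and 0.41 at day 7 and -1.27 and -1.27 at day 14. miR-596 had 0.81 and 0.49 at day 7 and -0.996 and -2.14 at day 14. miR-1469 had 2.61 and 3.02 at day 7 and 2.05 and 0.84 at day 14. In all of these the day 14 arrays were below the day 7 arrays, at levels under or around the level that every array measured. The changes were -1.87 (SE 0.45), -2.22 (SE 0.57) and -1.37 (SE 0.43), with limma adjusted p of 0.221, 0.221 and 0.377. With rma on the paired scanner arrays they shrank to -0.34, 0.093 and -0.40, so that the direction of miR-596 turned. Without day 14 replicate 2 the change of miR-1469 was -0.77. miR-501-5p had log2 values of 3.32 and 2.81 at day 7 and 1.44 and -0.12 at day 14, a change of -2.40 (SE 0.87, limma adjusted p 0.425) that was -1.12 with rma. Its arrays did not overlap between days.

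**Figure D3:**
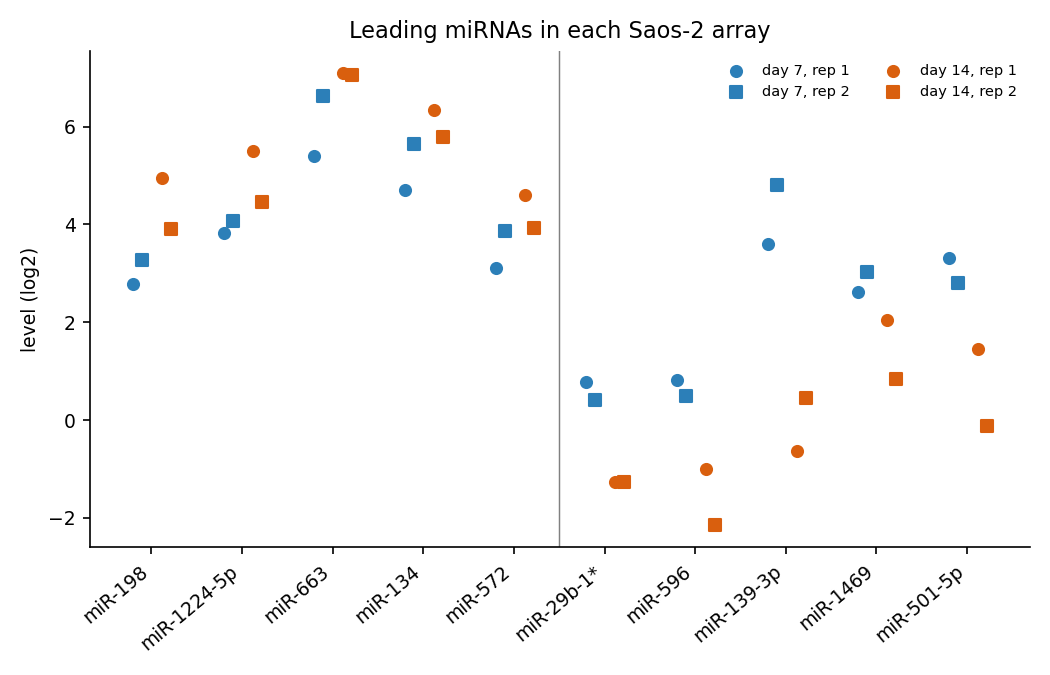
Log2 level of the leading higher (left) and lower (right) miRNAs in each Saos-2 array, 1 point per array, chosen among those detected on all 4 arrays. The higher ones lie at 2.79 or above on every array, while all of the lower ones have a day 14 value under 1, and none was called by limma as deposited; the direction of miR-596 turns with rma on the paired scanner arrays.

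Some miRNAs were detected on both arrays of 1 day and on neither of the other. No fold or bound on it is given, since a bound set by the lowest value detected on each array rests on single arrays or exceeds the change by rma. Where a fitted change counts a floor value as a measurement, this is said. At day 14 only, miR-1825 had log2 values of 1.42 and -1.09 (limma adjusted p 0.641), with a change of 0.29 by rma. miR-877*, which like miR-1224-5p derives from a spliced intron, had -1.05 and -1.30 (limma adjusted p 0.486), and miR-933 had -0.31 and -2.22 (limma adjusted p 0.608). These 3 were undetected on both day 7 arrays, of which replicate 1 had no detected value below 0.37. The rma changes of miR-877* and miR-933 were 0.47 and 0.13. At day 7 only, miR-30a*, the passenger strand of miR-30a, had 0.84 and 0.37 (limma adjusted p 0.221), and miR-129* had 1.39 and -1.36 (limma adjusted p 0.221). Both were undetected on the day 14 arrays. miR-129* was called without day 7 replicate 1 and without day 7 replicate 2. Each of these fits set 1 detected array against floor values on both day 14 arrays, so neither call is read as a change. Over all alternatives its fitted change ran from -4.69, with floor values counted as measurements, to 0.14 by rma without day 7 replicate 1. With rma on the paired scanner arrays the changes of miR-30a* and miR-129* were -0.27 and -0.082. miR-30a* was called with undetected values raised to the lowest detected value of their array (limma adjusted p 0.0289). At day 14 these are set values and not measurements, so no change is read from this call.

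The highest log2 values depend on the probe as well as on the miRNA, and are given for each miRNA across arrays only. miR-923 had 14.99 and 14.56 at day 7 and 14.99 and 14.11 at day 14. miR-21, the oncogenic miRNA that represses PDCD4, had 9.61 and 10.98 at day 7 and 8.96 and 10.54 at day 14. Replicate 2 was above replicate 1 on both days for miR-21, and day 14 was below day 7 within each replicate number, although nothing says what arrays of 1 number share. Its change of -0.55 (limma adjusted p 0.836) ran from -1.34 to 0.41 over all alternatives. miR-15b, a repressor of BCL2 and cyclins, had 10.09 on both day 7 arrays and 9.83 on both day 14 arrays, a change of -0.26 (limma adjusted p 0.871). The equal values come from the shared set of values onto which the table was normalized, 255 distinct ones among 10212, and so do not measure how alike the arrays were. miR-1308 had 8.35 and 9.83 at day 7 and 10.09 in each day 14 array, a change of 0.998 (limma adjusted p 0.552) that was 0.26 without day 7 replicate 1 and 1.74 without day 7 replicate 2. let-7a had 9.83 and 8.80 at day 7 and 9.42 and 9.20 at day 14, with the day 14 arrays inside the day 7 range.

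The let-7 family, which represses RAS and HMGA2 and accumulates as cells differentiate, had all 9 members detected on all 4 arrays. All 9 were lower at day 14 as deposited, with a median log2 change of -0.36 beside -0.064 for all tested, but 4 were higher by the common shift of centring, 1 with rma, 2 with scaled total gene signal, and 8 without day 7 replicate 1, where the median was 0.14. Against the median of all tested, 7 were below and 2 above as deposited and after centring, 9 were below with quantile normalization, 8 with rma and with scaled total gene signal (median -0.12), and 3 without day 7 replicate 1. let-7b had 9.42 and 7.99 at day 7 and 8.19 and 8.09 at day 14. let-7e had 8.80 and 7.42 at day 7 and 7.47 in each day 14 array. Day 7 replicate 1 was the highest array for both, and the other 3 arrays lay close together. No member was called, as was no miRNA tested. None had days that did not overlap, beside 14.2% of all tested above and 15.5% below.

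The families of miR-99, miR-100 and miR-125, of which miR-125b is known to hold back osteoblast differentiation, had 5 members. Of these, 4 were lower and 1 higher at day 14 as deposited and under each scaling, with a median of -0.61, and 3 were lower and 2 higher without day 7 replicate 1, where the median was -0.25. Day 7 replicate 1 had 4 of the 5 detected. The member undetected there was the higher one, so that its change of 1.70 as deposited counts a floor value as a measurement. miR-125b had 6.00 and 4.97 at day 7 and 4.89 and 4.15 at day 14, and miR-100 had 4.75 and 4.43 at day 7 and 3.86 and 3.62 at day 14. Both were lower on each day 14 array than on either day 7 array. Their changes were -0.96 (SE 0.53, limma adjusted p 0.552) and -0.85 (SE 0.49, limma adjusted p 0.595). That of miR-125b was -0.44 without day 7 replicate 1, -1.47 without day 7 replicate 2 and -0.59 without day 14 replicate 2. miR-125a-5p had 6.35 and 4.77 at day 7 and 5.12 and 4.77 at day 14, so that only day 7 replicate 1 was high.

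Among the miRNAs that act on matrix and RUNX2, the miR-29 family had 1 member, miR-29a, with log2 values of 5.93 and 6.11 at day 7 and 5.24 and 5.64 at day 14. The days did not overlap, and the change of -0.58 (SE 0.30, limma adjusted p 0.549) kept its direction under each scaling and without day 7 replicate 1 (-0.68), and was -0.37 with scaled total gene signal and -0.39 without day 14 replicate 1. The miR-30 family had 4 members, all lower as deposited with a median of -0.41, but 2 were higher by the shift of centring, 2 with scaled total gene signal, and 1 with rma and without day 7 replicate 1. All 4 were below the median of all tested as deposited, after centring and with quantile normalization, and 3 in the other 3 settings. The median was -0.21 with scaled total gene signal. miR-30a had 5.29 and 5.37 at day 7 and 4.52 and 4.97 at day 14, and miR-30c, a repressor of RUNX2, had 2.98 and 3.09 at day 7 and 0.84 and 2.56 at day 14. Both were lower on each day 14 array, by -0.58 and -1.33 (limma adjusted p 0.615 and 0.543). Without day 14 replicate 1 these changes were -0.36 and -0.47, and that of miR-30c was -2.19 without day 14 replicate 2 and -0.33 with rma. Of 11 miRNAs listed as targeting RUNX2, 8 were undetected on all 4 arrays, and the members were miR-23a and miR-30c, both lower, with a median of -0.82 as deposited, -0.39 with rma and -0.29 with scaled total gene signal. Without day 7 replicate 1, 1 of these was higher.

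The miR-23/27/24 clusters, which also act in osteoblast differentiation, had 5 members, all lower as deposited with a median of -0.35, while 1 was higher by the shift of centring and 2 with scaled total gene signal or without day 7 replicate 1. All 5 were below the median of all tested as deposited, after centring, with quantile normalization and with rma, 4 with scaled total gene signal (median -0.14) and 3 without day 7 replicate 1. miR-24 had 7.14 and 7.20 at day 7 and 6.47 and 6.97 at day 14, without overlap (change -0.45, limma adjusted p 0.735; -0.20 without day 14 replicate 1 and -0.70 without day 14 replicate 2). miR-23a had 7.09 and 6.22 at day 7 and 6.52 and 6.15 at day 14, where the days overlapped. The 7 members of the mesenchymal list had a median of 0.072, with 4 higher and 3 lower, which became 3 higher and 4 lower with rma and without day 7 replicate 1. Members turned behind these counts, 3 with rma and 1 without day 7 replicate 1, and with scaled total gene signal 2 turned while the count stayed. miR-140-5p, 1 of the 4 higher, was undetected in day 7 replicate 1. It had 2.50 in the other day 7 array and -0.68 and 3.05 at day 14. Its change of 1.51 counts the floor value as a measurement, and it was the member that turned without that array. The list median was -0.053 with rma, 0.25 with scaled total gene signal and -0.23 without day 7 replicate 1. miR-214 had 8.09 and 6.97 at day 7 and 7.20 and 5.93 at day 14, and miR-145 had 4.81 and 3.37 at day 7 and 4.75 and 3.70 at day 14. Replicate 1 exceeded replicate 2 by more than 1 in both miRNAs on both days. Within each replicate number miR-214 was lower at day 14, and miR-145 was lower in 1 and higher in the other. miR-199a-5p had 5.54 and 5.00 at day 7 and 5.64 and 5.05 at day 14, and miR-199a-3p, the other arm of the same precursors, had 5.46 and 5.12 at day 7 and 4.97 and 4.81 at day 14. The first overlapped between days and the second did not, with changes of 0.072 and -0.40 (limma adjusted p 0.984 and 0.704). The first turned to -0.20 without day 7 replicate 2 and to -0.22 without day 14 replicate 1, and the second was -0.23 without day 7 replicate 1.

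Of the miRNAs of the cell cycle, the miR-17 cluster and its paralogs, targets of MYC and repressors of CDKN1A, had 8 members of 13 listed. As deposited 4 were higher and 4 lower, with a median of -0.052, but all 8 were higher by the shift of centring, 6 with scaled total gene signal and 2 without day 7 replicate 1. Against the median of all tested, 4 were above and 4 below as deposited, after centring, with quantile normalization and with rma, 5 were above with scaled total gene signal (median 0.10) and 2 without day 7 replicate 1. miR-25 had 6.05 and 6.69 at day 7 and 5.86 and 7.42 at day 14, and miR-93 had 6.47 and 6.35 at day 7 and 6.15 and 6.80 at day 14. The day 7 arrays of both lay between those of day 14. The 3 members of the miR-15/16 family were lower, with a median of -0.26, but 1 was higher with rma, and another, by the shift of centring only, stayed below the median of all tested. The median was -0.15 with scaled total gene signal and -0.70 without day 7 replicate 1. miR-16 had 5.00 and 6.00 at day 7 and 4.55 and 6.05 at day 14. miR-34a, induced by p53, which Saos-2 cells lack, had 1.49 and -1.06 at day 7 and 0.81 and 2.79 at day 14. Its arrays overlapped between days, and its change of 1.58 (SE 0.86, limma adjusted p 0.552) was 0.67 with rma, 0.96 with scaled total gene signal and -0.30 with the scanner arrays as filed. Without 1 array in turn it was 2.86 and 0.30 (day 7 replicates 1 and 2) and 2.57 and 0.59 (day 14 replicates 1 and 2). The miR-26 family had miR-26a with 4.28 and 4.24 at day 7 and 3.95 and 5.21 at day 14, overlapping, and miR-26b with 3.27 and 2.61 at day 7 and 2.50 and 3.37 at day 14, likewise. Their median was 0.16, with 1 higher and 1 lower as deposited and both higher under each other scaling and without day 7 replicate 1, and both above the median of all tested in each. Their median was 0.32 with scaled total gene signal and 0.33 without day 7 replicate 1. Without day 14 replicate 2 both miR-26a and miR-26b were lower, at -0.30 and -0.44. They were 0.31 and -0.33 without day 7 replicate 2, and 0.95 and 0.43 without day 14 replicate 1.

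miR-221 and miR-222, repressors of CDKN1B, were listed with miR-21, and of these 3 members 2 were lower and 1 higher, with a median of -0.31, and all 3 were lower with rma and without day 7 replicate 1. The median was -0.16 with scaled total gene signal and -0.52 without day 7 replicate 1. miR-221 had 5.64 and 5.34 at day 7 and 5.16 and 5.19 at day 14, without overlap (change -0.31, limma adjusted p 0.784; -0.16 without day 7 replicate 1). miR-222 was undetected in day 7 replicate 1 and had -0.12 in the other day 7 array and -1.08 and -0.21 at day 14. It is the higher member through its floor value, with a change of 0.997 that was -0.52 without day 7 replicate 1 and 2.51 without day 7 replicate 2, where it was called (limma adjusted p 0.0215, range over all alternatives 0.0215 to 0.998). The 2 members of the family of miR-130b and miR-301a were lower under every scaling and without day 7 replicate 1, with a median of -1.02 as deposited, -0.13 with rma and -0.19 with scaled total gene signal. Yet miR-130b had 2.68 and 3.70 at day 7 and 0.39 and 3.74 at day 14, so that day 14 replicate 1 alone was low. Without it the change of miR-130b turned to 0.55 and that of miR-301a was -0.034. The miR-181 family had 1 member higher and 1 lower as deposited, both higher by the shift of centring and with scaled total gene signal, with a median of -0.072 that was -0.010 with rma and 0.16 with scaled total gene signal. miR-210, induced by hypoxia, had 3.86 and 3.16 at day 7 and 3.20 and 3.45 at day 14, a change of -0.19 that was 0.0094 with rma, 0.044 by the shift of centring, 0.060 with scaled total gene signal and 0.16 without day 7 replicate 1. The cluster of miR-191 and miR-425 had 2 members higher and 1 lower, with a median of 0.65, and 3 higher under each other scaling and without day 7 replicate 1. All 3 were above the median of all tested in each setting except rma, where 1 was below it. The median was 0.36 with rma and 1.95 without day 7 replicate 1. Without day 7 replicate 2, miR-191* and miR-425 were lower, at -0.66 and -0.35, while miR-425* was 0.75. Without day 14 replicate 1, miR-191* was -0.40, miR-425 was 0.29 and miR-425* was 0.54. Without day 14 replicate 2 these were 1.69, -0.33 and 2.22. miR-7 and miR-9 gave no member.

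The cluster of miR-188 and miR-500 on chromosome X, encoded within CLCN5 as shown by the positions of miR-188-5p, miR-362-5p and miR-501-5p, had 5 members of 13 listed. Of these 4 were lower and 1, miR-188-5p, higher as deposited and under every scaling, but without day 7 replicate 1 miR-188-5p turned lower and miR-532-3p turned higher. The median was -0.96 as deposited, -1.44 with quantile normalization, -0.28 without day 7 replicate 1, -0.17 with rma and -0.12 with scaled total gene signal. 1 of the 5, miR-501-5p, was lower at an unadjusted p of at most 0.05, beside 4.11% of all tested. miR-500 had 2.12 and 2.77 at day 7 and 2.10 and 0.88 at day 14. miR-188-5p had 6.85 and 7.05 at day 7 and 7.34 and 6.75 at day 14. The first was below its day 7 values on both day 14 arrays, narrowly on replicate 1, and the second overlapped. The miR-320 family, with the shared seed AAAGCUG in miR-320b, miR-320c and miR-320d, had 3 of 4 members lower with a median of -0.12, but all 4 were higher by the shift of centring and 3 without day 7 replicate 1. Against the median of all tested, 1 was above and 3 below as deposited and under every scaling, and 3 above and 1 below without day 7 replicate 1. The median was -0.025 with scaled total gene signal and 0.21 without day 7 replicate 1. miR-320c had 6.75 and 7.34 at day 7 and 7.66 and 7.34 at day 14, and miR-320d had 6.52 and 5.49 at day 7 and 5.93 and 5.70 at day 14, and the days overlapped in both.

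**Figure D4:**
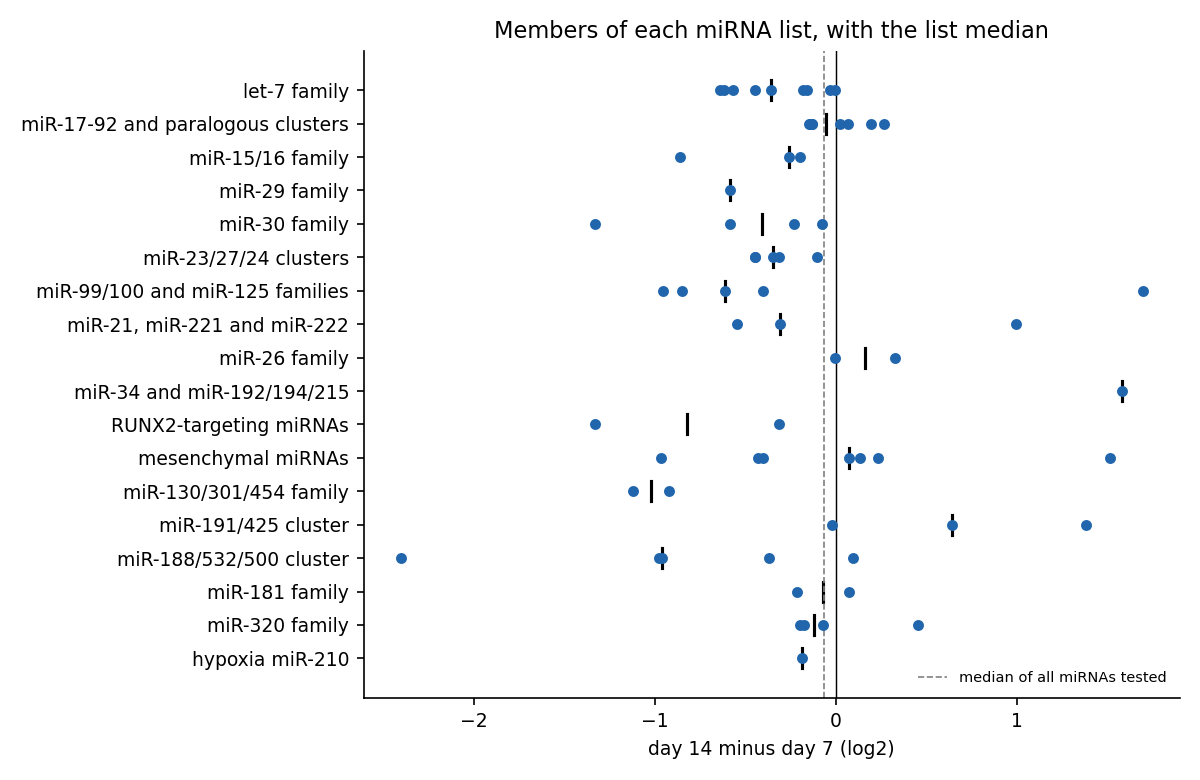
Log2 change from day 7 to day 14 of each list member (points) with the list median, beside the median of all miRNAs tested, -0.064. No member was called, and at least 1 member turned direction under another scaling or without day 7 replicate 1 in every list except those of miR-29, miR-34 and miR-130; for some lists centring, which shifts all miRNAs alike, counts among these.

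Whether the change from day 7 to day 14 differed between Saos-2 and Sa/CD99 was tested as the difference of the 2 changes, which share no array. limma called 8 of the 219 tested after Benjamini-Hochberg adjustment, all with a lower change in Saos-2 (3.65%), and 0 with a higher one (0%). At an unadjusted p of at most 0.05 there were 32, of which 25 were lower in Saos-2. Within Sa/CD99 alone, 33 miRNAs were higher (15.1%) and 10 lower (4.57%) at day 14 by the adjusted p. Of the 33, 25 were undetected in both clones at day 7 and so were tested against a floor, and 6 were detected on all 4 Sa/CD99 arrays, against 1 and 9 of the 10 (the 1 undetected at day 14). The median log2 change of all tested was -0.36 in Sa/CD99 and the median difference 0.13. Both Sa/CD99 groups lay on slide 2, while the Saos-2 days lay on different slides, so that here the slides and the cell types cannot be told apart.

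miR-1305 was the only one of the 8 above the level of 2.50 on all 8 arrays. It had 5.70 and 5.93 at day 7 and 5.19 and 4.63 at day 14 in Saos-2, and in Sa/CD99 4.77 and 5.09 at day 7 and 6.80 and 6.52 at day 14. It was lower on each day 14 array in Saos-2 and higher on each in Sa/CD99. The Saos-2 change was -0.90 (SE 0.34, limma adjusted p 0.462), that of Sa/CD99 was 1.73, and the difference was -2.63 (SE 0.49, limma adjusted p 0.0237). With rma on the paired scanner arrays the difference was -2.91 (limma adjusted p 0.00185). Over all alternatives its adjusted p ran from 0.00185 to 0.990, and it was 0.40 in the opposite direction with the scanner arrays as filed. With the replicate number and clone as a block the difference was not called (limma adjusted p 0.0722).

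miR-139-3p, lower at day 14 in Saos-2, was undetected in clone 22 at day 7, had 1.09 in clone 36, and had 3.90 and 3.40 at day 14 in Sa/CD99. The cell types thus lay in opposite directions, with a difference of -9.01 (SE 1.70, limma adjusted p 0.0237), in which a floor value counts as a measurement (-7.75 with undetected values raised to the lowest detected value of their array, limma adjusted p 0.00465). With rma it was -3.99 (limma adjusted p 0.000700). miR-500 had -0.28 and 0.88 at day 7 and 3.32 in each clone at day 14 in Sa/CD99, with a difference of -3.98 (SE 0.74, limma adjusted p 0.0237) and of -2.10 with rma (limma adjusted p 0.0294). miR-501-5p, its neighbour within CLCN5, had -0.36 in clone 22 and was undetected in clone 36 at day 7, and reached 3.05 in each clone at day 14. Both were higher at day 14 in each clone. The difference for miR-501-5p was -7.24 (SE 1.23, limma adjusted p 0.0237) with a floor value, -5.82 with undetected values raised (limma adjusted p 0.00493), and -2.46 with rma, where it was not called (limma adjusted p 0.0742, range over all alternatives 0.00493 to 0.990).

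miR-596 was undetected in both clones of Sa/CD99 at day 7 and had 2.56 and 0.94 at day 14. Its difference was -7.19 (SE 0.81, limma adjusted p 0.00493) against floor values, -4.51 with undetected values raised (limma adjusted p 0.0247), and -0.49 with rma (limma adjusted p 0.708, range over all alternatives 0.00404 to 0.990). miR-1469 had 1.47 and 1.49 at day 7 and 3.37 and 2.88 at day 14 in Sa/CD99, with a difference of -3.01 (SE 0.61, limma adjusted p 0.0340) that was not called with undetected values raised (limma adjusted p 0.0597), and of -1.12 with rma (limma adjusted p 0.481). Both were higher at day 14 in Sa/CD99 and lower in Saos-2, and neither was called with rma. miR-23a* and miR-550 were undetected in both clones at day 7 and on 3 of the 4 Saos-2 arrays. Among the groups of days 7 and 14, only Sa/CD99 at day 14 had them detected on both arrays. Their fitted differences therefore rest on floor values and measure no fold. These were -2.79 and -2.27 as deposited (limma adjusted p 0.0237 each) and -0.49 and -0.032 with rma. With undetected values raised to the lowest detected value of their array they were -0.63 and -0.11 (limma adjusted p 0.890 and 0.974). Neither miRNA was called with rma or with raised values.

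The number of such calls also rested on single arrays and on the fit. It was 31 without day 7 replicate 1 of Saos-2 (23 lower and 8 higher in Saos-2), 14 without day 7 replicate 2 (10 lower and 4 higher), 13 without day 14 replicate 1 and 1 without day 14 replicate 2, all lower. It was 12 with undetected values raised (11 lower and 1 higher) and 17 with rma without day 7 replicate 1 (15 lower and 2 higher), so that the single direction of the 8 calls did not hold in these 4 fits. It was 1, miR-596, with the replicate number and clone as a block, where the others of the 5 smallest p had a limma adjusted p of 0.0722. It was 4 with rma on the paired scanner arrays, miR-1305, miR-139-3p, miR-500 and miR-892b, the last named after its values were seen, and 0 with only the 8 arrays of days 7 and 14.

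**Figure D5:**
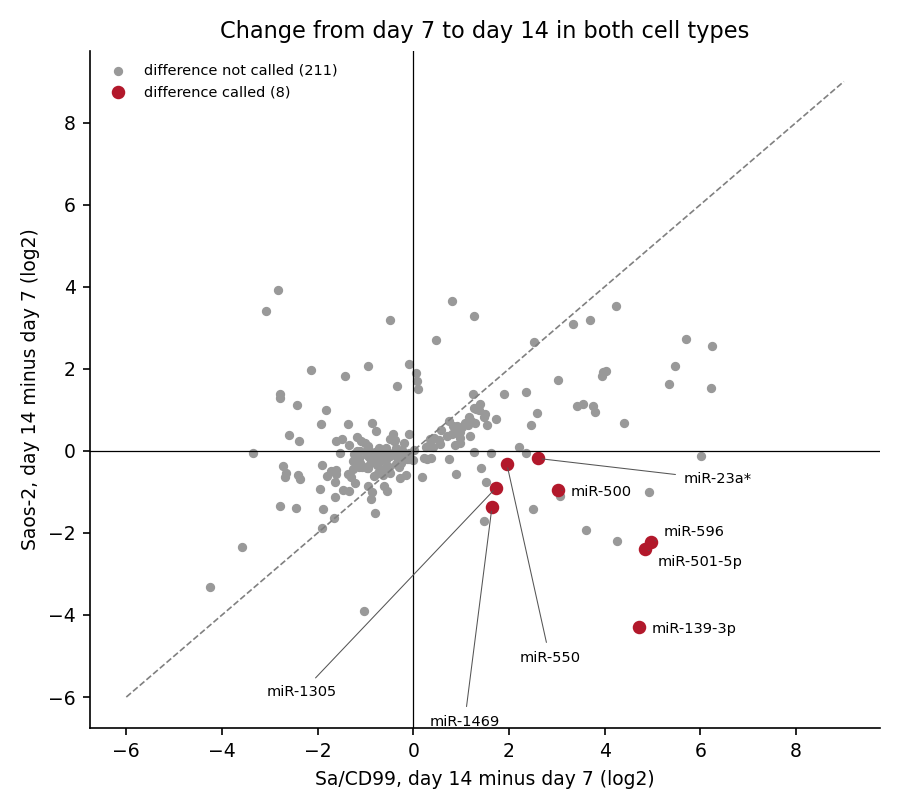
Log2 change from day 7 to day 14 in Saos-2 (y axis) against that in Sa/CD99 (x axis), 1 point per miRNA tested, with the 8 miRNAs called for a different change marked. All 8 lie below the line of equal change, and miR-1305 alone of these was above a log2 level of 2.50 on every array.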

How the data were processed

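Total RNA of both cell types, taken at days 0, 7 and 14, was labelled with Cy3 and hybridised to 12 one-colour arrays. The authors scanned the arrays, and per the file headers the deposited spot intensity was extracted with Feature Extraction 10.7.3.1, without normalization. A second deposited file holds log2 values that the authors normalized, and the submitters' processing notes name RMA. Its exact scale and centring are not given in the sources used here. The columns keep the order of the total gene signal and draw on a shared set of values. Undetected miRNAs stand at a floor, which is also the median of each column: -3.16 and -3.32 for day 7 and -3.30 and -3.31 for day 14 of Saos-2. Detection flags (other deposited values of 0 or 1, per the file headers) were used to pair each column with 1 array.

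The 219 miRNAs detected on both arrays of any of the 6 groups were fitted with limma 3.58.1 in R 4.3.3 over all 12 arrays with 6 residual degrees of freedom, without covariates. p-values were adjusted by Benjamini-Hochberg over all 219 and called at 0.05. Scripts were tested on simulated data. Python 3.11.15 made the tables. Members and lists were chosen with earlier results of these data known. The miRNAs named are the called miRNAs of each direction or, with none called, the 5 smallest p among those detected on all 4 arrays with days that did not overlap, those detected on 1 day only, the 5 highest mean levels, up to 4 members of each list with the highest mean level, and the 5 smallest p of the difference between cell types. For Sa/CD99, clones 22 and 36 pair the arrays. Over 219 miRNAs, the deviations of a clone's arrays from the group means correlated at 0.034 for day 0 with day 7, 0.18 for day 0 with day 14 and 0.072 for day 7 with day 14. Alternatives changed the scaling, filter, fit, thresholds, block, source of values and arrays. Those added after seeing the data were the fit of only the 8 arrays of days 7 and 14, the filter at the lowest shared rank, rma without day 7 replicate 1 and, for the difference between cell types, scaled total gene signal and the arrays as filed.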

Additional observations from a re-analysis of the deposited data

Results flagged for a closer look

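The change from day 7 to day 14 differed between Saos-2 and Sa/CD99 for 8 miRNAs by limma's test of the difference, all lower in Saos-2. The 5 with the smallest p had differences in log2 change, Saos-2 minus Sa/CD99, of -7.19 for miR-596, -7.24 for miR-501-5p, -2.79 for miR-23a*, -2.27 for miR-550 and -2.63 for miR-1305. The values of miR-596 and miR-501-5p rest in part on floor values of undetected miRNAs. At day 7 in Sa/CD99, miR-596 was undetected in both clones and miR-501-5p in 1 clone. miR-23a* and miR-550 were undetected in both clones at day 7 and on all but 1 of the 4 Saos-2 arrays, so their values measure no fold. With undetected values raised to the lowest detected value of their array, those of miR-596 and miR-501-5p were -4.51 and -5.82, and those of miR-23a* and miR-550 were -0.63 and -0.11 and were not called. With rma on the paired scanner arrays the differences of miR-596, miR-501-5p, miR-23a* and miR-550 were -0.49, -2.46, -0.49 and -0.032, and none of these 4 was called. With the replicate number and clone as a block, miR-596 was the only call, and miR-1305 had a limma adjusted p of 0.0722. With only the 8 arrays of days 7 and 14 there were 0 calls. Each of these values carries the difference between slides, which cannot be told apart from that between cell types. Outside the human miRNA names, the arrays hold 88 names of other origin that no comparison uses, and 5 of these were detected on all 4 Saos-2 arrays of days 7 and 14.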

How the results depend on the processing

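For day 14 against day 7 in Saos-2, limma called 0 miRNAs as deposited, with only the 4 arrays, the 6 Saos-2 arrays or the 8 arrays of days 7 and 14, with no filter, with either stricter filter, after centring or quantile normalization, with limma's trend or robust setting, with scaled total gene signal and with the scanner arrays as filed. It called 3 with undetected values raised to the lowest detected value of their array, 6 at the thresholds of the study's methods, and 1 with rma on the paired scanner arrays, with and without day 7 replicate 1. Leaving out 1 array in turn gave 0 to 19, with 5 without day 7 replicate 1, 19 without day 7 replicate 2, 0 without day 14 replicate 1 and 2 without day 14 replicate 2. The difference between cell types had 8 calls as deposited, 4 with no filter, 12 with undetected values raised (11 lower and 1 higher in Saos-2), 4 with rma, 13 with scaled total gene signal, 0 with the arrays as filed, 0 with only the 8 arrays of days 7 and 14, 1 above the lowest shared rank and 17 with rma without day 7 replicate 1. Leaving out 1 Saos-2 array in turn gave 1 to 31, the lowest without day 14 replicate 2 and the highest without day 7 replicate 1 (23 lower and 8 higher). The difference of miR-1305 was 0.40, in the other direction, with the arrays as filed. The cause was not tested. Of these, the fit of the 8 arrays, the lowest shared rank, rma without day 7 replicate 1 and, for the difference, scaled total gene signal and the arrays as filed were chosen after seeing the data. With the replicate block there were 0 calls for Saos-2 and 1 for the difference, miR-596. For Saos-2 nothing says what a replicate number shares, and deviations of same-numbered arrays correlated across 219 miRNAs at 0.18, 0.18 and 0.20. Slide as a term could not be fitted, since each group lies on 1 slide. For the 69 named miRNAs, 138 of 1472 values under an alternative had the other sign, and 7 miRNAs had a call in the Saos-2 comparison under at least 1 alternative. Signal over background was not measured here; every array of the series holds detected miRNAs above the level of 2.50. With the scanner arrays as filed, the Saos-2 changes of miR-21, miR-15b, miR-100, miR-30a, miR-30c, miR-24, miR-199a-5p and miR-221 turned direction.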
